A study of Mus musculus with 15 samples.

Results

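Fatty acid oxidation and ketone body handling were examined through 41 named genes in whole mouse kidney. The members were taken by name, as enzymes, carriers and regulators of these pathways, and all 41 were found among the 13940 genes with an annotated transcript listed for every mouse. All 41 also passed the filter on low values that left 12372 genes for testing (at least 1 FPKM, fragments per kilobase of transcript, scaled to the depth of the library, in at least 5 mice). By the organelle of the protein, 22 were mitochondrial, 10 were peroxisomal and 9 were found in both organelles or in neither. The study used male C57BL/6 wild-type mice, bought at 8 weeks of age and kept for 28 days in 3 groups of 5. Every mouse carried an osmotic pump under the skin, which gave saline to Control mice and Angiotensin-II at 500 ng/kg/min to the AngII and AngII+QDG mice. The AngII+QDG mice also had Qingda granule (QDG), a preparation of 4 herbs, by daily gavage at 1.145 g/kg/day, and the other groups had water by gavage. AngII infusion is a common model of hypertension, and the 3 groups ask what the infusion changed in the kidney and what QDG changed on top of it. Each sample is 1 renal library of 1 mouse, so fewer cells of a type and less RNA per cell cannot be told apart.

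The kidney, and above all its proximal tubule, meets much of its energy demand by burning fatty acids. Long-chain fatty acids are taken up and joined to coenzyme A, carried into mitochondria as carnitine esters, and shortened by cycles of dehydrogenation, hydration, a second dehydrogenation and thiolysis. Very long and branched chains are shortened first in peroxisomes. PPAR-alpha, a nuclear receptor that binds fatty acids, switches on many of these genes in fasting, and acetyl-CoA from the cycle can be exchanged with ketone bodies.

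The values of the 15 libraries implied 68922800 to 81329450 reads or fragments. Depth leaned with the groups, at 75034650 to 81329450 in Control, 70697550 to 79291950 in AngII and 68922800 to 76143450 in AngII+QDG. Proximal tubule markers were present in every mouse. All 12 were tested, none was called in any comparison by limma, and their summed level was 4174 to 4357 FPKM in Control, 4168 to 5511 in AngII and 4041 to 4873 in AngII+QDG. Fat markers were uneven, with a sum of 165 FPKM in AngII 1, 87.3 in Control 2, 44.4 in AngII+QDG 5 and 26.7 or less in the other 12 mice. AngII 2 and AngII 5 stood apart in Slc12a1, the salt carrier of the thick ascending limb, with 18.0 and 42.1 FPKM against 68.0 or more in the other 13 mice. Umod, of the same segment, was also lowest in them, at 695 and 785 FPKM. Kcnj1 (55.3 and 57.9 FPKM) and Cldn16 (7.33 and 8.20 FPKM), also of that segment, lay within the range of the other mice. The part of these differences in the results was not tested.

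The members differed widely in level (values are gene FPKM, which is per length, so genes can be compared). Slc27a2, which imports very long chains and activates them, was the most abundant. Its values in replicates 1 to 5 were 1046, 1146, 1336, 1117 and 1670 FPKM in Control, 1046, 921, 1081, 1080 and 957 in AngII, and 1108, 1047, 1135, 1273 and 1460 in AngII+QDG. Acsm2, a mitochondrial ligase for medium chains, came next at 562 FPKM over all mice, and Acadm, the medium-chain dehydrogenase, followed at 350 FPKM. At the low end were Pdk4, the kinase that turns off pyruvate dehydrogenase, at 7.32 FPKM, and Ppara itself at 5.91 FPKM. The steadiest member was Etfa, a subunit of the flavoprotein that takes electrons from the dehydrogenases, which stayed between 219 and 260 FPKM in all mice.

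**Figure D1:**
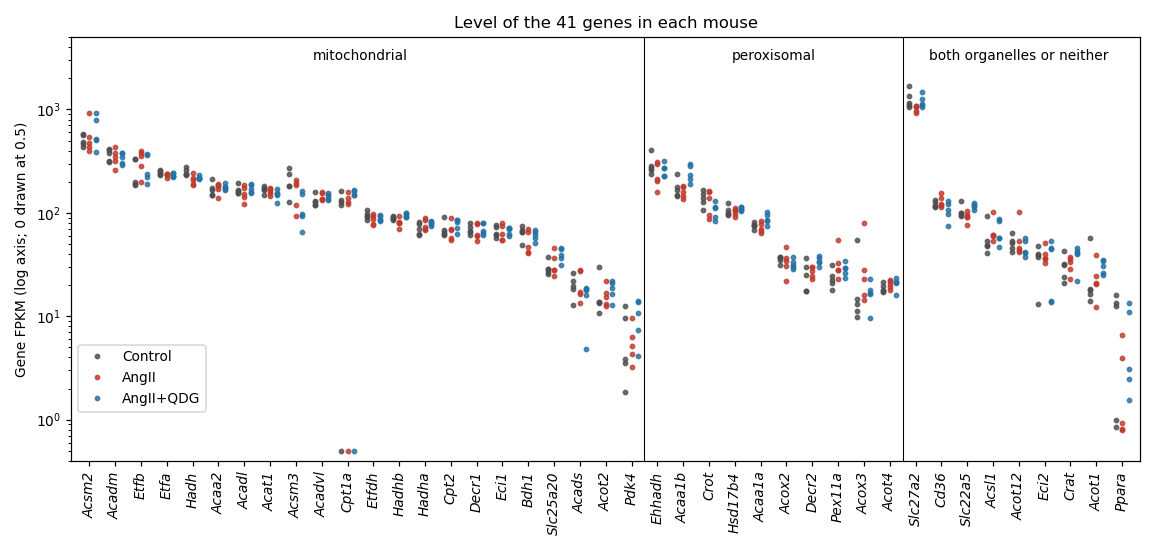
Gene FPKM (vertical log axis) of the 41 genes (horizontal axis) in each mouse, 1 point per mouse, coloured by group and ordered by mean level within organelle. Slc27a2 lies at 921 to 1670 FPKM, Ppara at 0.793 to 16.1 FPKM, and Cpt1a is at 0 (drawn at 0.5) in 1 mouse of each group.

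The sums over organelles did not separate the groups. The mitochondrial members summed to 3153 ± 257 FPKM in Control, 3140 ± 395 in AngII and 3199 ± 188 in AngII+QDG (SD, n = 5 each). The peroxisomal members summed to 909 ± 141 FPKM in Control, 846 ± 135 in AngII and 942 ± 75.4 in AngII+QDG (SD, n = 5 each). The mitochondrial sum holds Cpt1a, Etfb and Acsm2, whose sums depend on transcripts described further on. Without these 3 genes it was 2292 ± 195 FPKM in Control, 2154 ± 223 in AngII and 2170 ± 139 in AngII+QDG (SD, n = 5 each), so the order of the group means changed. In each sum the ranges of the 3 groups overlapped.

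Short sequences bear on how far single members can be read. Hadha and Hadhb encode the 2 kinds of subunit of the mitochondrial trifunctional protein and lie head to head on chromosome 5. Their RefSeq starts (GRCm38.p6) are 30154980 on the minus strand and 30155253 on the plus strand, with 272 bases between them. The stretch that lies outside the annotated transcripts of both genes, chr5:30155163-30155247, is printed on the plus strand because both subunits are described next. Capitals mark GGGCGG, a GC box, searched on both strands. It occurred 2 times in these 85 bases and in 35.7% of all 32851 RefSeq promoter windows, which are longer at 300 bases. CCAAT, searched in the same way, occurred 0 times here and in 37.4% of all windows.
Hadha-Hadhb: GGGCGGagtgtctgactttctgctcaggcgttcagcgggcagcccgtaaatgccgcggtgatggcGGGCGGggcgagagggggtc
The peroxisomal thiolase genes Acaa1a and Acaa1b, both on chromosome 9, had 96.5% identical coding bases (1231 of 1275 aligned, longest identical run 327 bases). The first 90 coding bases of their main transcripts are printed to show this, with capitals at the 3 bases that differ.
Acaa1a: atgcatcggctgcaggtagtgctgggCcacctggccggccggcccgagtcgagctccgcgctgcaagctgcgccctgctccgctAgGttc
Acaa1b: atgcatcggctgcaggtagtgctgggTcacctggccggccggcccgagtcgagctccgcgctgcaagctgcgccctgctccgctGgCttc
Reads from such stretches can be assigned to either gene, so the split between the pair is uncertain. The same holds for the thioesterases Acot1 and Acot2, whose coding bases were 95.5% identical.

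The comparison of AngII vs. Control asked what the infusion changed. Of the 41 members, 1 was lower and 0 were higher at an adjusted p under 0.05 (limma, adjusted over all 12372 genes), while 5.94% of all genes tested were called, 4.95% higher and 0.994% lower. That background changed with the mice in the fit. It was 2.74% to 6.48% without 1 mouse, and without AngII 2 and AngII 5, which left 3 AngII mice, 0.672% of all genes and no member were called. At an unadjusted p under 0.05 there were 3 of 41 members and 22.7% of all genes. The median log2 difference was -0.02 over the members and 0.08 over all genes. No member met the study's own rule (fold of at least 2 and unadjusted p under 0.05), which 1.05% of all genes met, and no member had groups that did not overlap, against 7.91% of all genes. The log2 differences of the members ran from -1.15 (Ppara) to 0.64 (Acox3), and neither of these passed the test. The 95% interval lay within 1 log2 unit of 0 for 37 of 41 members (83.1% of all genes) and within 0.5 log2 units for 21 of 41 (48.9% of all genes). Among all genes 612 were higher and 123 lower, and with median scaling the split was 200 higher and 270 lower. The median log2 difference of the members was -0.11 after median scaling and -0.09 after quantile normalization. Without AngII 2 and AngII 5 it was 0.08, as over all genes (0.08), so no distance between the members and all genes was seen without these mice.

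**Figure D2:**
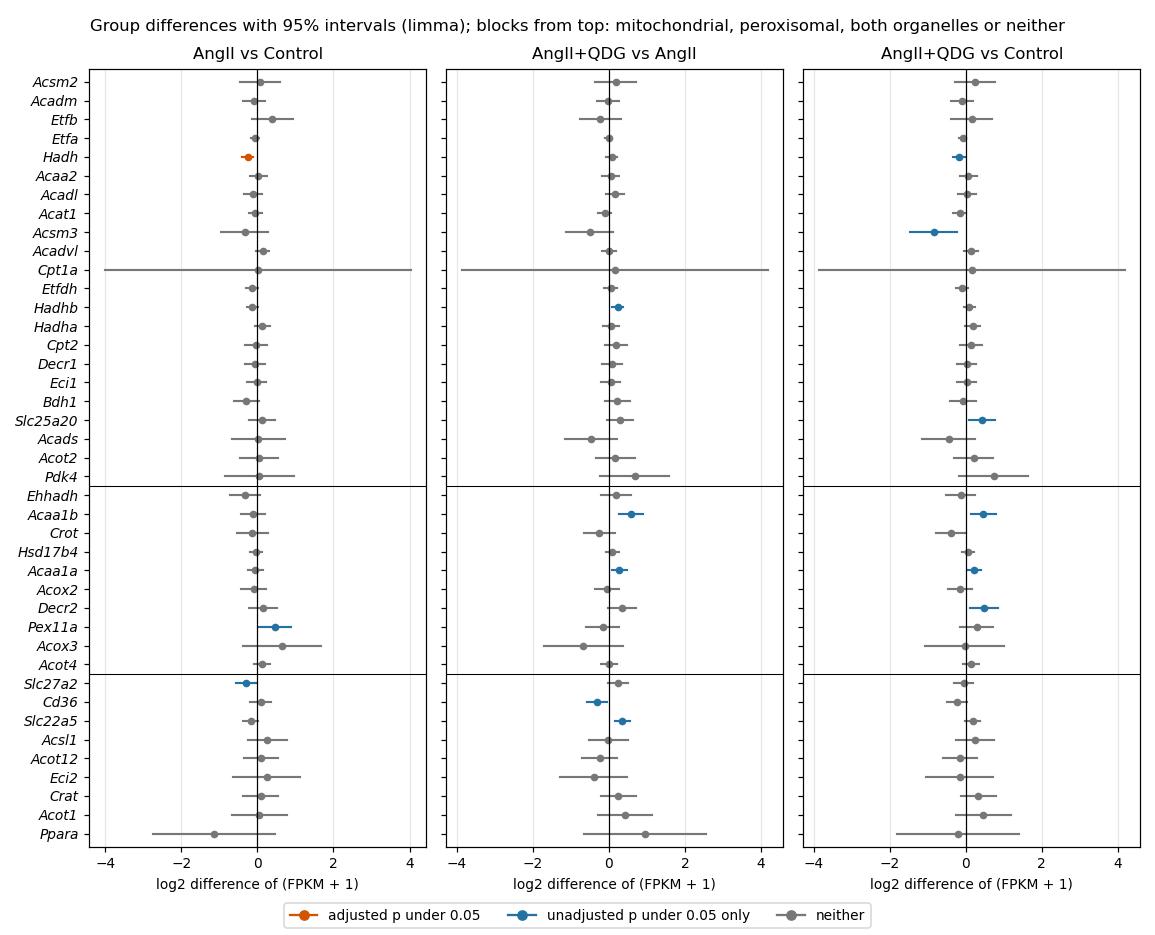
Log2 difference of (FPKM + 1) on the horizontal axis for each gene (vertical axis) in the 3 comparisons, as a point with its 95% interval from limma, in blocks by organelle. Hadh in AngII vs. Control is the 1 point with an adjusted p under 0.05, and the widest intervals are those of Cpt1a and Ppara.

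The member that fell was Hadh (chromosome 3, 131233419 to 131272101, minus strand, GRCm38), the mitochondrial dehydrogenase of short and medium 3-hydroxyacyl chains. Replicates 1 to 5 had 231, 239, 258, 277 and 239 FPKM in Control, 186, 241, 191, 218 and 208 in AngII, and 217, 216, 219, 214 and 230 in AngII+QDG. The AngII mice lay lower than every Control mouse except for AngII 2, which overlapped them. The log2 difference was -0.26 (standard error 0.07, adjusted p = 0.0456). This call was lost in 14 of the 15 fits that each left out 1 mouse (adjusted p from 0.0276 to 0.0997; it was kept without AngII 2), in a fit of these groups alone (adjusted p = 0.106), and in each fit without 2 or 3 doubted mice. The direction was the same in all of these.

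The other members of the mitochondrial cycle did not pass the test. Acadm had 318, 308, 382, 407 and 411 FPKM in Control, 346, 257, 378, 430 and 317 in AngII and 377, 288, 344, 305 and 379 in AngII+QDG. All 3 groups of Acadm overlapped, and its log2 difference was -0.09 (95% interval -0.38 to 0.20, adjusted p = 0.741). Of the 11 members of the mitochondrial cycle, 9 had an interval within 0.5 log2 units of 0. Hadha had 70.7 ± 9.33 FPKM in Control and 77.3 ± 9.86 in AngII, and Hadhb had 88.9 ± 3.60 and 81.0 ± 8.74 (SD, n = 5 each). With transcripts weighted by length in the sum, Hadha had 73.7 ± 9.59 FPKM in Control and 73.0 ± 7.34 in AngII (SD, n = 5 each). The long-chain and very-long-chain dehydrogenases Acadl and Acadvl had 167 ± 16.8 and 131 ± 16.8 FPKM in Control against 155 ± 25.6 and 144 ± 11.7 in AngII (SD, n = 5 each).

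Among the peroxisomal members, none of 10 passed the test, and 6 of the differences were negative and 4 positive. Pex11a alone had an unadjusted p under 0.05 in limma, and it was higher in AngII. Its log2 difference was 0.45 (95% interval 0.02 to 0.88, adjusted p = 0.197). Ehhadh, the bifunctional hydratase and dehydrogenase, had 260, 240, 274, 283 and 404 FPKM in Control, 201, 158, 297, 307 and 215 in AngII, and 228, 227, 275, 270 and 316 in AngII+QDG. The highest Ehhadh value was Control 5 and the lowest was AngII 2, with the other mice overlapping. Its log2 difference in AngII vs. Control was -0.33 (95% interval -0.72 to 0.07, adjusted p = 0.314). Slc27a2, in the uptake group, had a log2 difference of -0.29 (95% interval -0.55 to -0.03, adjusted p = 0.165).

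For ketone bodies, Acat1, the mitochondrial acetoacetyl-CoA thiolase, had 167, 148, 171, 181 and 174 FPKM in Control, 173, 145, 164, 171 and 156 in AngII and 157, 125, 148, 153 and 169 in AngII+QDG. These groups overlapped, with an adjusted p of 0.731 in AngII vs. Control. Bdh1, which interconverts acetoacetate and 3-hydroxybutyrate, had 49.0, 64.8, 64.8, 67.7 and 73.8 FPKM in Control, 70.2, 40.9, 47.0, 65.7 and 41.8 in AngII, and 68.2, 51.0, 61.6, 57.4 and 65.8 in AngII+QDG. These groups overlapped as well, and the log2 difference was -0.29 (95% interval -0.62 to 0.05, adjusted p = 0.296).

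The regulator and the fuel switch varied widely between mice of 1 group. Ppara had 12.7, 0.994, 0.851, 13.4 and 16.1 FPKM in Control, 0.931, 3.95, 0.793, 0.808 and 6.56 in AngII, and 13.5, 3.10, 11.0, 2.46 and 1.56 in AngII+QDG. It was above 10 FPKM in 3 Control mice, 0 AngII mice and 2 AngII+QDG mice. The other Control mice were at 0.994 FPKM or less, the AngII mice at 0.793 to 6.56 FPKM and the other AngII+QDG mice at 1.56 to 3.10 FPKM. The log2 difference in AngII vs. Control was -1.15 with a 95% interval from -2.75 to 0.46 (adjusted p = 0.397). Pdk4 had 3.51, 9.55, 3.83, 1.86 and 12.5 FPKM in Control, 6.27, 5.17, 9.60, 4.27 and 3.20 in AngII, and 4.17, 10.7, 13.7, 7.43 and 13.9 in AngII+QDG. Its groups overlapped, and its log2 difference was 0.05 in AngII vs. Control and 0.68 in AngII+QDG vs. AngII (adjusted p = 0.453).

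The comparison of AngII+QDG vs. AngII asked what QDG changed under infusion. None of the 41 members passed an adjusted p under 0.05 in limma, while 1.81% of all genes did. At an unadjusted p under 0.05 there were 5 members, 4 higher and 1 lower, against 16.4% of all genes. The median log2 difference was 0.08 over the members and -0.02 over all genes. Without AngII 2 and AngII 5 it was 0.00998 and -0.02, with no member and 0.0574% of all genes called. Without Control 2 and AngII 1, the 2 mice highest in fat markers, it was 0.04 and -0.00818, with no member and 1.1% of all genes called. Without AngII+QDG 5 as well it was 0.02 and -0.00987, with no member and 0.223% of all genes called. The 95% interval lay within 1 log2 unit of 0 for 33 of 41 members (84.5% of all genes) and within 0.5 log2 units for 18 of 41 (52.8% of all genes). In 2 members every AngII+QDG mouse lay above every AngII mouse, against 1.56% of all genes, and in 0 members below, against 3.44%. None met the study's rule, which 0.816% of all genes met. The 5 members below were singled out after their values were seen.

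Acaa1b (chromosome 9, 119148023 to 119157093, minus strand, GRCm38), the peroxisomal thiolase B, was one of the pair that did not overlap. Replicates 1 to 5 had 147, 148, 165, 178 and 238 FPKM in Control, 160, 135, 145, 183 and 176 in AngII, and 230, 300, 212, 188 and 281 in AngII+QDG. Every AngII+QDG mouse lay above every AngII mouse, and Control 5 lay among them. The log2 difference was 0.59 (standard error 0.15, 95% interval 0.26 to 0.91, adjusted p = 0.0658). Acaa1a, its near-identical neighbour, had 68.7, 77.0, 81.0, 74.4 and 75.6 FPKM in Control, 69.5, 83.3, 64.6, 66.9 and 78.5 in AngII, and 102, 96.0, 86.0, 74.9 and 83.0 in AngII+QDG. Its groups overlapped (log2 difference 0.28, standard error 0.09, adjusted p = 0.125).

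Slc22a5 (chromosome 11, 53864542 to 53891660, minus strand, GRCm38), the sodium-dependent carnitine carrier that brings carnitine into cells, was the other. It had 99.4, 95.5, 94.2, 98.9 and 130 FPKM in Control, 76.0, 95.3, 103, 91.2 and 91.5 in AngII, and 113, 120, 120, 107 and 124 in AngII+QDG. Every AngII+QDG mouse lay above every AngII mouse and above 4 of the 5 Control mice. The log2 difference was 0.35 (standard error 0.09, 95% interval 0.15 to 0.56, adjusted p = 0.0709).

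Hadhb (chromosome 5, 30155248 to 30184593, plus strand, GRCm38) had 84.5, 93.2, 88.7, 91.8 and 86.5 FPKM in Control, 81.2, 69.1, 80.5, 93.8 and 80.2 in AngII, and 90.3, 90.5, 99.7, 94.4 and 99.4 in AngII+QDG. AngII 4 alone of its group reached the AngII+QDG values (log2 difference 0.23, standard error 0.07, adjusted p = 0.0933). Its partner Hadha, across the shared stretch printed above, had 77.3 ± 9.86 FPKM in AngII and 79.9 ± 3.46 in AngII+QDG (SD, n = 5 each). The distance between the partners depended on the sum. With transcripts weighted by length, Hadha had 73.0 ± 7.34 and 81.2 ± 5.44 FPKM (SD, n = 5 each). The weighted log2 difference was 0.16 for Hadha (limma, adjusted p = 0.407) and 0.24 for Hadhb (adjusted p = 0.0800). Cd36, a fatty acid receptor of cell membranes, had 117, 115, 134, 128 and 116 FPKM in Control, 120, 122, 154, 139 and 115 in AngII, and 130, 75.3, 106, 96.6 and 121 in AngII+QDG. Its lowest values were in AngII+QDG, but the groups overlapped (log2 difference -0.31, standard error 0.13, adjusted p = 0.233).

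Acaa1b, Slc22a5 and Hadhb were each called in 1 of the 15 fits that left out 1 mouse, with adjusted p up to 0.147, 0.147 and 0.188. Acaa1a and Cd36 were called in none of them (lowest adjusted p 0.0907 and 0.118). Quantile normalization called Hadhb (log2 difference 0.30, adjusted p = 0.0373) and Acaa1b (0.68, adjusted p = 0.0387). Leaving out Control 5, which enters this comparison only through the shared spread, called Acaa1b (adjusted p = 0.0378) and Slc22a5 (adjusted p = 0.0295). Leaving out AngII 4 called Hadhb (adjusted p = 0.0366), and leaving out Control 5 and AngII 3 together called Slc22a5 (log2 difference 0.40, adjusted p = 0.0211).

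**Figure D3:**
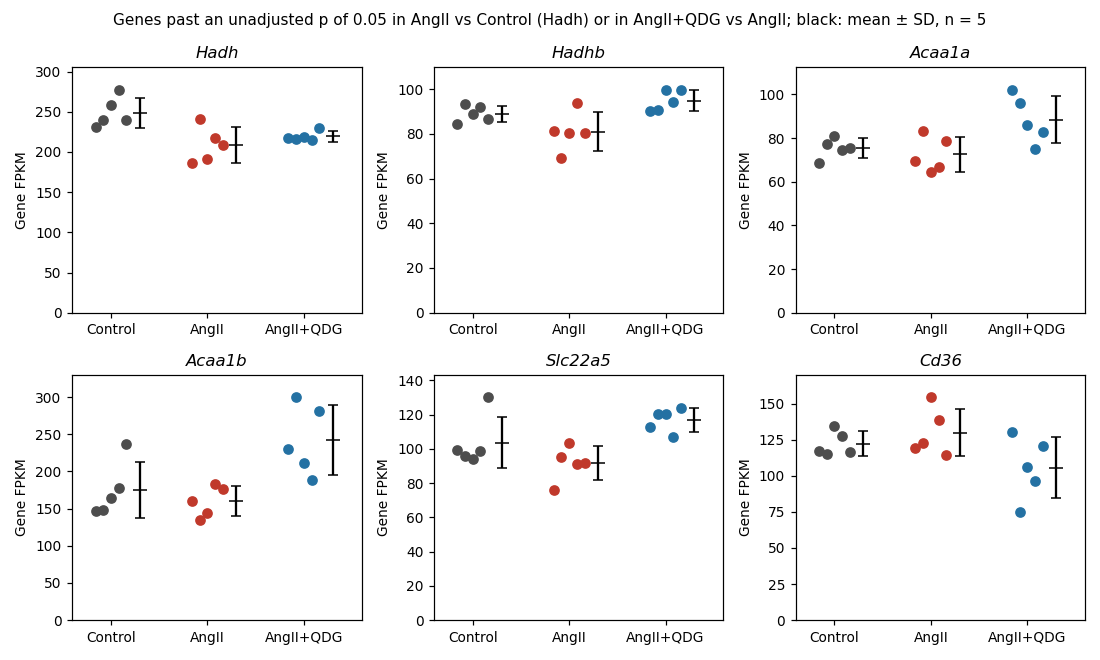
Gene FPKM (vertical axis, from 0) of 6 genes in each mouse of the 3 groups (horizontal axis), with the mean ± SD of 5 mice in black. Acaa1b and Slc22a5 are the 2 genes in which every AngII+QDG mouse lies above every AngII mouse, and Hadh is the 1 gene called in AngII vs Control.

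In AngII+QDG vs. Control, 0 of 41 members passed the test in limma, where 0.129% of all genes did. At an unadjusted p under 0.05 there were 6 members and 14.4% of all genes. The members had a median log2 difference of 0.07 against 0.06 over all genes. No member met the study's rule (0.727% of all genes). The 95% interval lay within 1 log2 unit of 0 for 33 of 41 members (84.4% of all genes) and within 0.5 for 20 of 41 (52.8%). Hadh was the 1 member whose groups did not overlap, with every AngII+QDG mouse lower than every Control mouse (log2 difference -0.18, standard error 0.07, adjusted p = 0.262), against 0.857% of all genes lower in this way. The others at an unadjusted p under 0.05 were Acsm3, a medium-chain ligase (log2 difference -0.84, adjusted p = 0.209), Decr2, a peroxisomal reductase for unsaturated chains (0.49, adjusted p = 0.225), Slc25a20, the carrier that takes acylcarnitine across the inner membrane (0.42, adjusted p = 0.258), Acaa1b (0.47, adjusted p = 0.182) and Acaa1a (0.22, adjusted p = 0.281). The comparisons share groups, so their values for a gene are not independent of each other.

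High values within a group often fell on the same mouse. Control 5 was the highest of the Control mice for 31 of 41 members (75.6%), where it was the highest for 17.7% of all genes tested. AngII 3 was the highest of the AngII mice for 20 of 41 members (48.8%) against 14.9% of all genes. These members share each library, so the counts describe these mice and carry no test. The lists had 18 members in common, which is 58.1% of the list of Control 5, where AngII 3 was the highest for 48.8% of all 41, and 90.0% of that of AngII 3, where Control 5 was the highest for 75.6% of all 41. AngII 2 was the lowest of its group for 23 members. It was the highest of its group for 6 of the 12 proximal tubule markers. In AngII+QDG, replicate 5 was the highest for 15 members (36.6%, against 19.5% of all genes) and replicate 3 for 12.

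Acot1, a cytosolic thioesterase that frees fatty acids from coenzyme A, was among the clearest in Control. Control 5 had 57.2 FPKM and the other 4 Control mice 14.1 to 18.2 FPKM, while AngII 3 had 39.1 FPKM and the other AngII mice 12.4 to 24.5. Its mitochondrial paralogue Acot2 had 30.1 FPKM in Control 5 against 10.7 to 13.8 FPKM in the others, and 22.1 FPKM in AngII 3 against 12.6 to 16.7. Acsl1, a long-chain acyl-CoA synthetase, had 94.1 FPKM in Control 5 against 40.6 to 52.9, and 101 FPKM in AngII 3 against 53.2 to 60.7. In Acot1, Acot2 and Acsl1 alike, the 2 mice had the highest values of their groups. By the rule on gaps given further on, Control 5 stood clear in all 3 genes and AngII 3 in Acsl1 only. Acot1 and Acot2 are near-identical in sequence, so they are not separate cases.

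Acot12, an acetyl-CoA thioesterase, had 45.7, 42.3, 51.4, 53.4 and 63.2 FPKM in Control, 41.8, 44.1, 102, 53.3 and 46.2 in AngII and 40.6, 37.6, 53.7, 41.7 and 56.9 in AngII+QDG. AngII 3 stood alone with a ratio of 2.25 to the median of the other AngII mice. Pex11a, which acts in the division of peroxisomes, had 54.9 FPKM in AngII 3 against 23.1 to 32.9 FPKM in the other AngII mice, and 31.6 FPKM in Control 5 against 17.8 to 24.5 FPKM. The carnitine palmitoyltransferase of the inner membrane, Cpt2, had 90.7 FPKM in Control 5 and 88.5 FPKM in AngII 3, with the other mice of those groups at 55.1 to 69.7 FPKM.

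**Figure D4:**
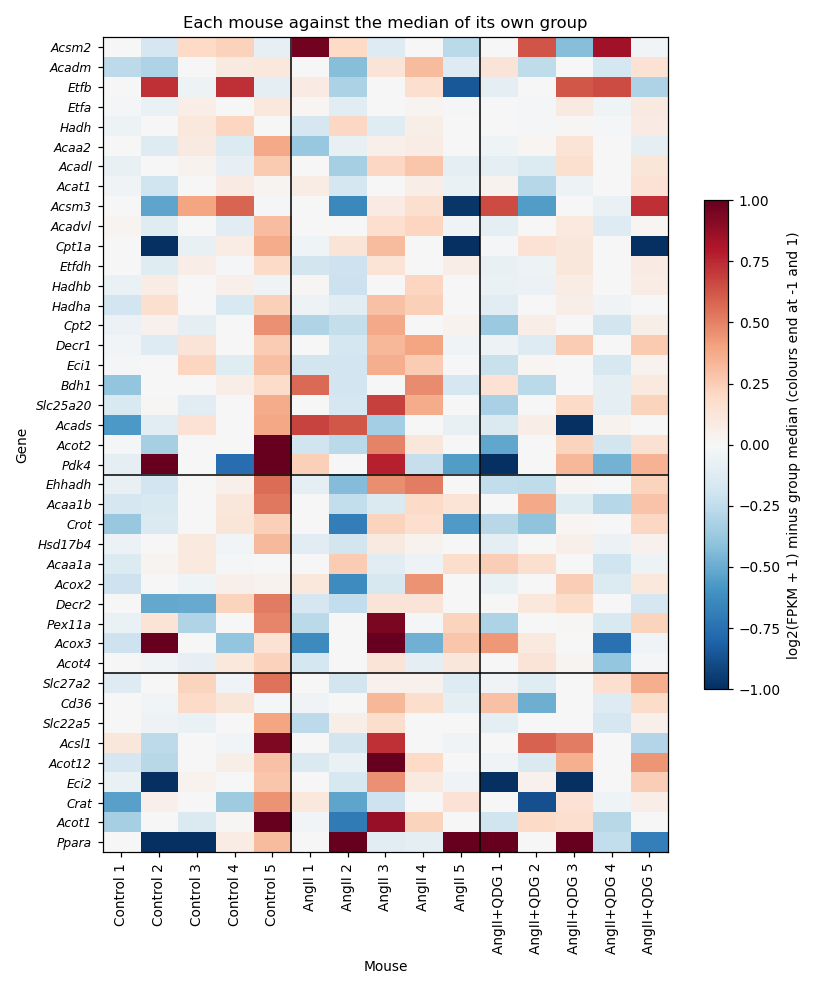
Deviation of each mouse (horizontal axis) from the median of its own group for each gene (vertical axis), as log2(FPKM + 1), red above and blue below, with colours ending at -1 and 1. The column of Control 5 is mostly red, where it is highest in its group for 31 of 41 genes, and so is much of that of AngII 3, highest for 20.

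Genes outside the 41 were counted in the same way. Of 73 tested genes of the same pathways, Control 5 was the highest Control mouse for 25 (34.2%, against 17.7% of all genes) and Control 4 for 23 (31.5%, against 20.4%). AngII 3 was the highest AngII mouse for 21 (28.8%, against 14.9%), AngII 4 for 20 (27.4%, against 20.5%) and AngII 5 for 18 (24.7%, against 17.4%). A list of 38 genes of the PPAR and PGC-1 axis had 34 tested. On it, Control 5 was the highest Control mouse for 13 (38.2%) and AngII 3 the highest AngII mouse for 11 (32.4%). AngII 4 was the highest for 9 (26.5%, against 20.5% of all genes). In the third group AngII+QDG 5 was the highest for 14 (41.2%, against 19.5% of all genes). Angptl4, a secreted inhibitor of lipoprotein lipase and a known PPAR target, had 71.8 FPKM in Control 5 against 18.5 to 37.3 FPKM in the other Control mice, and 86.0 FPKM in AngII 3 against 18.4 to 35.2 FPKM. Vnn1, a pantetheinase, had 48.6 FPKM in Control 5 against 10.6 to 19.7 FPKM but 9.22 FPKM in AngII 3, the lowest of its group. Pck1, the gluconeogenic carboxykinase, had 2797 FPKM in AngII 3 against 980 to 1546 FPKM in the other AngII mice. Ppara had 16.1 FPKM in Control 5 but 0.793 FPKM in AngII 3, the lowest value of all mice. The summed fat markers were 0.0447 FPKM in Control 5 and 0.0444 in AngII 3, the lowest of their groups, and the summed proximal tubule markers were 4174 and 4168 FPKM, also the lowest of their groups. Angptl4, Vnn1 and Pck1 were chosen after their values were seen. Without Control 5 and AngII 3, no member was called in AngII vs. Control, and the median log2 difference of the members was 0.000776 (0.09 over all genes).

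The promoters of 7 members held a half-site of the nuclear receptor element, AGGTCA, on either strand in the part of the RefSeq promoter window before the start. Windows were found for 36 of 41 members. The half-site was in 7 of their 40 windows (17.5%) and in 16.3% of all windows of 300 bases, so the members held it about as often as other genes. The element that PPAR-alpha binds with its partner is a direct repeat of such half-sites spaced by 1 base. In the exact form AGGTCANAGGTCA, it was found in 0 windows of members and in 0.0396% of all windows. The half-sites are printed in capitals on the strand of the gene (TGACCT is the same half-site on the other strand), so that their place and strand can be compared between the 7 members. The windows are from GRCm38.p6, and a match is a description of letters only.
Slc27a2, chr2:126552792-126552821, plus strand: gcaccacgccttTGACCTtttcaacgtggg
Acadm, chr3:153944875-153944893, minus strand: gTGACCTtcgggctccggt
Cd36, chr5:17836107-17836136, minus strand: ctctgcactttaTGACCTgagattttcagg
Acadvl, chr11:70015498-70015527, minus strand: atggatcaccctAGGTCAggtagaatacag
Acot4, chr12:84038354-84038378, plus strand: agccccgaagcaTGACCTttggccg
Acot12, chr13:91741399-91741428, plus strand: ctcgtaggacccTGACCTctcacctcctaa
Cpt1a, chr19:3323195-3323224, plus strand: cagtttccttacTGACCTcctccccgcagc

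Cpt1a, the carnitine palmitoyltransferase of the outer mitochondrial membrane and the step at which entry is controlled, could not be read as a gene sum in every mouse. Its 1 listed transcript (ENSMUST00000025835) had 127, 0, 120, 134 and 164 FPKM in Control, 123, 139, 158, 127 and 0 in AngII, and 147, 165, 161, 149 and 0 in AngII+QDG. In each group 1 mouse was listed at 0 and the other 4 lay between 120 and 165 FPKM. An assembled transcript with no gene name, MERGE.12339.2, had 141, 136 and 184 FPKM in those same 3 mice, 14.8 FPKM in Control 3 and 2.48 FPKM or less in the other 11. Of 11141 assembled transcripts, 2 were at least 5 times higher in each of these 3 mice than in any other mouse and at 5 FPKM or more in them, and the second, MERGE.8768.11, was at 5.76 to 6.76 FPKM. This search was made after the values were seen, and the files give no position for the assembled transcripts, so whether either one belongs to Cpt1a was not tested.

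Over all mice the interval of Cpt1a reached from -4.02 to 4.03 log2 units in AngII vs. Control. Without the 3 mice listed at 0 the levels were 136 ± 19.4 FPKM in Control, 136 ± 15.8 in AngII and 155 ± 8.73 in AngII+QDG (SD, n = 4 each). The log2 difference was then 0.01 in AngII vs. Control (95% interval -0.22 to 0.24, adjusted p = 0.982) and 0.19 in AngII+QDG vs. AngII (95% interval -0.04 to 0.42, adjusted p = 0.452).

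**Figure D5:**
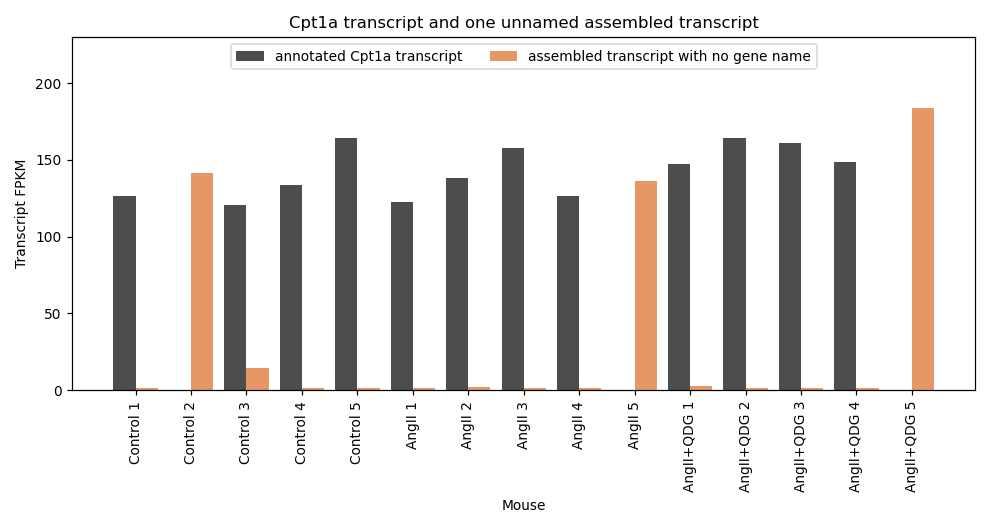
FPKM (vertical axis, from 0) of the annotated Cpt1a transcript and of the assembled transcript MERGE.12339.2 in each mouse (horizontal axis). The 3 mice in which Cpt1a is listed at 0 are those in which the assembled transcript has 136 to 184 FPKM.

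Other gene sums also rested on transcripts that came and went between mice of 1 group. Of the 140 transcripts of members listed for all mice, 14, from 11 genes, fell below 10% of their highest value within a group in which that value was at least 20 FPKM. Ppara, a sum of 3 transcripts at 16.1 FPKM or less in every mouse, could not reach that limit. Whether its spread rests on such transcripts was not tested. Among the 11 genes, Etfb, the partner of Etfa, was the clearest case. Its gene sum was 198, 329, 191, 330 and 186 FPKM in Control, 376, 285, 355, 398 and 197 in AngII, and 221, 236, 364, 372 and 191 in AngII+QDG. The short transcript Etfb-205 (551 bases) was at 259 to 331 FPKM in the 8 mice with a sum of 285 FPKM or more and at 0.480 FPKM or less in the other 7. In those 7 mice the transcript Etfb-201 (893 bases) was at 181 to 233 FPKM. With transcripts weighted by length in the sum, Etfb ran from 234 to 344 FPKM over all mice, and its log2 difference in AngII vs. Control was 0.17 (adjusted p = 0.435) in place of 0.39 (adjusted p = 0.389).

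Acsm2 had a gene sum of 489, 436, 561, 576 and 463 FPKM in Control, 927, 543, 434, 474 and 394 in AngII, and 518, 799, 385, 928 and 510 in AngII+QDG. The groups overlapped, and the log2 difference was 0.07 in AngII vs. Control (adjusted p = 0.902). Its longest transcript, Acsm2-207 (6738 bases), differed between mice in another way. It was at 14.5 to 34.7 FPKM in Control 1 to 4 and at 404 in Control 5, at 342 to 484 in AngII 1 to 4 and at 31.3 in AngII 5, and at 283 to 466 in every AngII+QDG mouse. Weighted by length, the gene was at 132 to 181 FPKM in Control 1 to 4 and in AngII 5 at 140 FPKM, and at 643 to 893 FPKM in the other 10 mice. The weighted log2 difference was 1.39 in AngII vs. Control (adjusted p = 0.127) and 1.80 in AngII+QDG vs. Control (adjusted p = 0.147). Neither passed the test, and 1 mouse in each of Control and AngII went against the rest of its group.

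Tested one by one, 109 transcripts of members passed the filter and 0 were called by limma at an adjusted p under 0.05 in any comparison, where 0.691%, 0.0972% and 0.0243% of all 28812 transcripts were called in AngII vs. Control, AngII+QDG vs. AngII and AngII+QDG vs. Control. The counts at an unadjusted p under 0.05 were 14, 9 and 19 of 109 (15.9%, 11.3% and 10% of all transcripts). The study's rule was met by 5, 0 and 3 of them (2.88%, 2.24% and 2.02% of all transcripts). In AngII vs. Control these were Acsm2-207, Hadha-203 and Hadhb-202, which were higher, and Acsm3-205 and Acsm3-206, which were lower. Acsm3-206, a short transcript with a retained intron, had the lowest adjusted p (0.0509), with 2.72 ± 0.819 FPKM in Control and 0.858 ± 0.515 FPKM in AngII (SD, n = 5 each).

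Genes of the same pathways outside the 41 were taken from a list of 82, of which 73 were tested. In AngII vs. Control 3 were lower and 0 higher (0.994% and 4.95% of all genes), and 16 had an unadjusted p under 0.05 (22.7% of all genes). Bdh2, a cytosolic 3-hydroxybutyrate dehydrogenase, fell from 210 ± 3.91 FPKM in Control to 169 ± 11.0 in AngII (SD, n = 5 each), a log2 difference of -0.31 (standard error 0.05, adjusted p = 0.00712). Acadsb, a dehydrogenase of short branched chains in isoleucine breakdown, fell by 0.66 on the log2 scale (adjusted p = 0.0312), and Pcca, a subunit of propionyl-CoA carboxylase, fell by 0.16 (adjusted p = 0.0278). The call of Bdh2 was kept in all 15 fits that each left out 1 mouse. That of Acadsb was lost in 5 of them (without Control 1, Control 3, AngII 1, AngII 2 or AngII 5) and that of Pcca in 7 (without Control 1, Control 3, Control 4, Control 5, AngII 2, AngII 4 or AngII 5). Both were lost in a fit of these groups alone (adjusted p = 0.0777 and 0.0713). In AngII+QDG vs. AngII, 1 was higher and 3 were lower (1.81% of all genes called), with 16 at an unadjusted p under 0.05 (16.4% of all genes). Bdh2 rose to 203 ± 9.33 FPKM (log2 difference 0.26, adjusted p = 0.0226). Both comparisons of Bdh2 use the same AngII mice, and in each the groups did not overlap. The thioesterase Acot9 fell by 0.67 (adjusted p = 0.0141), the peroxisomal coenzyme A hydrolase Nudt19 by 1.07 (adjusted p = 0.0488) and Slc16a1, a carrier of lactate and ketone bodies, by 0.99 (adjusted p = 0.0247). Of the 15 fits without 1 mouse, the call was lost in 0 for Acot9, in 3 for Bdh2 (without AngII 2, AngII+QDG 2 or AngII+QDG 5), in 5 for Slc16a1 (without AngII 2, AngII 5, AngII+QDG 2, AngII+QDG 4 or AngII+QDG 5) and in 14 for Nudt19 (in all but the fit without AngII 1). In a fit of these groups alone the calls of Bdh2 (adjusted p = 0.0747), Slc16a1 (0.0584) and Nudt19 (0.104) were lost, and that of Nudt19 was also lost after median scaling (0.0645) and quantile normalization (0.0703). Without Control 2, AngII 1 and AngII+QDG 5, the mice of each group highest in fat markers, none of these 4 was called (adjusted p from 0.0642 for Acot9 to 0.0892 for Bdh2 and Nudt19). None of the 73 was called in AngII+QDG vs. Control by limma, and 9 had an unadjusted p under 0.05, against 0.129% and 14.4% of all genes. Without AngII 2 and AngII 5, the mice low in Slc12a1, 1 of the 73, Bdh2, was called in AngII vs. Control (adjusted p = 0.0452) and 0 in AngII+QDG vs. AngII.

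On the PPAR and PGC-1 axis, 2 of the 34 genes tested were higher and 1 lower in AngII vs. Control, where 5.94% of all genes were called. Esrra, an orphan receptor that drives mitochondrial genes with PGC-1, rose from 57.8 ± 4.58 to 82.3 ± 9.27 FPKM (SD, n = 5 each), a log2 difference of 0.50 (adjusted p = 0.00631). Gpd1, the cytosolic glycerol-3-phosphate dehydrogenase, rose by 0.40 (adjusted p = 0.0227), and Cyp2j5, a kidney epoxygenase of arachidonic acid, fell by 0.19 (adjusted p = 0.0151). Without AngII 2 and AngII 5 the calls of Esrra (adjusted p = 0.0452) and Gpd1 (0.0467) were kept and that of Cyp2j5 was lost (0.0646), as it was without the 3 mice with Cpt1a at 0 (0.0605). Without Control 2 and AngII 1 the call of Gpd1 was lost (adjusted p = 0.0642), as it was without Control 1 alone (0.0582) and after median scaling (0.0994) or quantile normalization (0.0756). In the other comparisons limma called 0 of 34, with 7 at an unadjusted p under 0.05 in each (16.4% of all genes in AngII+QDG vs. AngII and 14.4% in AngII+QDG vs. Control). The markers of other cells that were called included Slc26a4, of the collecting duct, and Tagln, of smooth muscle, both higher in AngII vs. Control, and Hba-a1, an alpha globin of red blood cells, higher in AngII+QDG vs. Control (log2 difference 1.17, adjusted p = 0.0257). Their part in the result was not tested.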

How the data were processed

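RNA-seq was made by the authors from renal tissue of 15 mice with paired-end Illumina reads. The labels give ribosomal RNA depletion, and the methods add a poly(A) selection step. Which of these shaped the libraries is uncertain, and its effect on transcripts with retained introns was not tested. The labels name mm10 and limma. The aligner is not given in the sources used here. The authors deposited a table per mouse, which lists Ensembl transcripts beside assembled ones with MERGE identifiers and whose values were taken as FPKM. They do not name the unit. It was read from the values, since the product of value and length came in whole steps of a constant particular to each mouse, within 0.1 reads, for 98.7% to 98.8% of values under 200 reads. Of 31301 Ensembl identifiers, 31254 were in GENCODE M21 (GRCm38). The files share 40054 transcripts, of which 28871 are annotated. The Control files hold 1423 that the others lack, and the others hold 2256 that the Control files lack. The 11141 shared assembled transcripts carry no gene name and were left out of gene sums.

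Transcript FPKM was summed per gene over annotated transcripts listed in all files. Genes that reached 1 FPKM in 5 or more mice were tested in limma 3.58.1 (R 4.3.3) on log2(FPKM + 1) with a mean per group, all 15 mice in 1 fit (12 residual degrees of freedom), moderation with a trend, two-sided tests and Benjamini-Hochberg adjustment over all genes tested. The pseudocount of 1 makes changes of low genes smaller. A gene was called at an adjusted p under 0.05, and the rule of the study (fold of at least 2, unadjusted p under 0.05) was counted beside it. The script was tested on simulated data. Coding sequences were aligned with Biopython 1.88, and promoters are RefSeq windows of 250 bases before and 50 after a start.

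The members and gene lists were chosen with earlier results of these data known, so no test was made over a list. Values per mouse are given for members called in any comparison, for the most abundant member of each role, and for Ppara, Cpt1a, Acat1 and Bdh1; genes of the other pathway list and of the PPAR and PGC-1 list are named when called. Some marker results are not reported here. Other genes named were chosen after their values were seen. Alternatives were median scaling, quantile normalization, a pseudocount of 0.1, no filter, fits of 2 groups alone, other choices of transcripts and leaving out each mouse. Fits without 2 or 3 doubted mice and the sum weighted by transcript length were added after the data were seen. Nothing in the labels tells whether mice of a group shared a cage, litter or day.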

Additional observations from a re-analysis of the deposited data

Results flagged for a closer look

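In groups of 5 mice, a highest or lowest value was listed where its gap to the nearest other mouse was over 0.710 of the range of its group. Among 123 groups (41 genes in 3 groups) this gave 17 values. Of these, 7 high values were in Control 5. The limit is one that about 1 in 20 groups of independent, normally distributed values would pass. The genes here share their libraries, FPKM was not put on a log scale, and the share over all genes was not counted. The count therefore carries no comparison with chance.
Of the low values, 3 were those of Cpt1a, listed at 0 FPKM in Control 2, AngII 5 and AngII+QDG 5. In Control 5 the high values were 90.7 FPKM of Cpt2, 37.3 of Slc25a20, 404 of Ehhadh, 94.1 of Acsl1, 57.2 of Acot1, 30.1 of Acot2 and 130 of Slc22a5. AngII 3 was high in Acox3 (80.4 FPKM), Acsl1 (101 FPKM) and Acot12 (102 FPKM).
Acox3, a peroxisomal oxidase of branched chains, was also high in Control 2 at 54.0 FPKM, against 9.74 to 14.6 FPKM in the other Control mice. Acsm2 was high in AngII 1 at 927 FPKM. Acads, the short-chain dehydrogenase, was low in AngII+QDG 3 at 4.86 FPKM against 16.1 to 18.8 FPKM, and Crat, the carnitine acetyltransferase, was low in AngII+QDG 2 at 22.0 FPKM against 40.0 to 45.7 FPKM.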

How the results depend on the processing

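No paired analysis was possible because the replicate numbers follow the order of the samples and pair no mice. Leaving out each mouse gave 338 to 797 genes called in AngII vs. Control, 53 to 250 in AngII+QDG vs. AngII and 0 to 110 in AngII+QDG vs. Control (735, 224 and 16 with all mice). The members called were then 0 to 1, 0 to 2 and 0 to 0, and the other pathway genes called 1 to 4, 1 to 4 and 0 to 1 (3, 4 and 0 with all mice). The lowest count in AngII vs. Control came without Control 1, that in AngII+QDG vs. AngII without AngII 2, and that in AngII+QDG vs. Control without Control 4, while the highest count of the last came without Control 2.
In fits of 2 groups alone, the genes called were 460, 68 and 4, the members called in AngII vs. Control 0, and the other pathway genes 1 in AngII vs. Control and 1 in AngII+QDG vs. AngII. Protein-coding transcripts alone gave 408 genes in AngII vs. Control and 6 in AngII+QDG vs. Control, the most abundant transcript alone 353 and 6, and both called 0 members in AngII vs. Control. Median scaling called 470 genes in AngII vs. Control. Quantile normalization called 2 members in AngII+QDG vs. AngII and 1 transcript of a member in AngII vs. Control. The own transcript list of each file gave 80 genes in AngII+QDG vs. Control. The sum weighted by transcript length called 5 other pathway genes in AngII vs. Control.
Without Control 5 and AngII 3 the genes called were 397 in AngII vs. Control and 43 in AngII+QDG vs. Control, the members 0 in AngII vs. Control and 1 in AngII+QDG vs. AngII, and the other pathway genes 1 in AngII vs. Control and 2 in AngII+QDG vs. Control. Without Control 2 and AngII 1, the 2 mice highest in fat markers, 134 genes were called in AngII+QDG vs. AngII and 136 in AngII+QDG vs. Control, 0 members in AngII vs. Control and 1 other pathway gene in AngII+QDG vs. Control. Without AngII+QDG 5 as well it was 399 genes in AngII vs. Control and 27 in AngII+QDG vs. AngII, 0 members in AngII vs. Control and 0 other pathway genes in AngII+QDG vs. AngII. Without the 3 mice with Cpt1a at 0, 300 genes were called in AngII vs. Control and 15 in AngII+QDG vs. AngII, 0 members in AngII vs. Control and 1 other pathway gene in AngII+QDG vs. AngII. Without AngII 2 and AngII 5 it was 82 and 7 genes, 0 members in AngII vs. Control, and 1 and 0 other pathway genes in the same comparisons. The causes were not tested. No called value of a named member changed sign in any alternative run. The effect of depth was not tested.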
